A study of Rattus norvegicus with 8 samples.

Results

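The genes described here code for heterogeneous nuclear ribonucleoproteins (hnRNPs), SR proteins and ELAV-like proteins, which bind RNA and take part in splicing. They were chosen by name from an Agilent rat gene expression array. A gene was taken when its name on the array began with Hnrnp or Hnrp, began with Srsf or Sfrs followed by a digit, or was one of Elavl1 to Elavl4, Celf1 to Celf6 or Rbfox1 to Rbfox3. This gave 38 of the 26514 gene names on the array, measured by 53 probes of 60 bases. Of these genes, 18 were hnRNP genes, 16 carried an Sfrs name and 4 were ELAV-like genes, while 0 CELF and 0 RBFOX genes were found under these names. The array uses older symbols, and 20 of the 38 genes have since been renamed in RefSeq (GRCr8 annotation). The names of the array are kept in the text. Of the 16 Sfrs genes, 9 are now named Srsf and are called SR proteins here. The other 7, Sfrs8 (now Sfswap), Sfrs12 (Srek1), Sfrs12ip1 (Srek1ip1), Sfrs14 (Sugp2), Sfrs15 (Scaf4), Sfrs16 (Clasrp) and Sfrs18 (Pnisr), are called SR-related.

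RNA came from the lumbar L6S1 spinal cord of male Wistar rats aged 12 weeks, with 1 array for each rat. The stress group held 4 rats that had undergone chronic water avoidance (WA) stress, in which a rat stays for 1 h on a small platform surrounded by water, on 10 days, with tissue taken 24 h after the last session. The control group held 4 rats of the same strain, sex and age without this stress. The study states that its rats that were not stressed were handled over the 10 days. The comparison asks which transcripts of the spinal cord differ in abundance after a stress that is used as a model of visceral hypersensitivity. Before any scaling, the 75th percentile of the signal lay between 1841 and 2335 on the control arrays and between 1751 and 1945 on the stress arrays, and 22998 to 24064 probes per array were well above background. With 4 arrays per group, precision is limited for every value.

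HnRNPs and SR proteins bind nascent transcripts and often have opposite effects on the choice of exons, with SR proteins favouring and many hnRNPs disfavouring the inclusion of the exon they bind. Many of these genes also control their own transcripts, through exons whose inclusion sends the mRNA to nonsense-mediated decay. The ELAV-like proteins bind AU-rich stretches and stabilise mRNAs. Elavl1 is made in most cells, and Elavl2, Elavl3 and Elavl4 are made mainly in neurons. A probe of this array reports the transcripts that hold its 60 bases, so that splicing itself was not measured.

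The level of a gene is its log2 signal after subtraction of the 75th percentile of that array, and each gene is represented by its brightest probe. All 53 member probes were tested, and on each of the 8 arrays all of them were well above background. Fold changes are on the log2 scale, stressed minus control, each with its limma standard error (SE), and adjusted p values come from a limma fit across 23677 tested probes. At an adjusted p below 0.1, 3 of the 38 genes were called, which is 7.89% of them, where 3.74% of all tested probes were called. All 3 genes, Hnrnph3, Sfrs1 and Sfrs2, were higher in stressed rats, a direction in which 2.77% of all tested probes were called. At an adjusted p below 0.05, 0 of the 38 genes were called. At an unadjusted p below 0.05, 18 genes passed in the limma fit, 13 with a higher and 5 with a lower mean in stressed rats. This is 47.4% of the genes, where 20.3% of all tested probes passed. In 13 genes the ranges of the groups were apart, 9 with stressed rats above and 4 with stressed rats below. This is 34.2% of the genes, beside 12.1% of all tested probes. These shares are not fully alike, as all tested probes include dim ones and several for some genes. At an adjusted p below 0.1 with 1 probe per gene symbol, 10.5% of the genes and 4.54% of the probes were called. With probes well above background on all arrays, these were 13.2% and 4.90%. Over all tested probes, 655 calls were higher and 230 lower in stressed rats. With quantile normalization these were 618 and 634, and with the percentile taken over probes 651 and 423, while all member calls were higher under both. The median log2 fold change was 0.081 over the 38 genes and 0.061 over all tested probes, and 0.074 and -0.031 with quantile normalization. Without control replicate 2 these medians were 0.083 and 0.093. They were 0.081 and 0.11 with no filter on dim probes, and 0.038 and 0.019 with the percentile over probes. Fold changes ran from -0.35 for Hnrnpa3 to 1.14 for Hnrnph2, with 20 genes above 0 and 18 below. As whole tissue was measured, fewer cells of a type and less RNA per cell cannot be told apart in any of these values.

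Control replicate 2 did not group with the rest of its group. Neither its label nor the quality of its RNA was tested, so whether it is a control rat rests on the label alone, and so do the fold changes that include it. On the first principal component of all tested probes, which held 54.1% of the variance, it lay at 46.1, the stressed rats lay between 8.23 and 34.5, and control replicates 1, 3 and 4 lay between -56.3 and -39.4. In 24 of the 38 genes (63.2%) its signal was nearer to the mean of the stressed rats than to the mean of the other control rats, as it was at 68.0% of all tested probes. Without control replicate 2, limma called 24 of the 38 genes (63.2%), 15 higher and 9 lower in stressed rats, where 42.4% of all tested probes were called, and the 3 genes named above were among them. When 1 of the remaining 7 rats was left out instead, limma called 0 of the 38 genes, and 11 to 16 of them passed at an unadjusted p below 0.05. Over all 23677 tested probes, 0 to 72 were then called and 3003 to 4398 passed at an unadjusted p below 0.05. For the genes given by array, the fold change is stated with and without control replicate 2. This rat was singled out by these same data. Leaving out a control rat that lies near the stressed rats narrows the control group and widens the difference. The counts and adjusted p values without it therefore describe its influence and are not an independent test. All 8 arrays lay on 1 slide and were scanned together, stressed rats in its row 1 and control rats in its row 2, so that slide row and group cannot be told apart. Rats of the same replicate number shared a slide column. With this column as a block, limma called 0 of all tested probes and 0 of the 38 genes. At an unadjusted p below 0.05, 4292 of the 23677 probes and 14 of the 38 genes then passed.

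**Figure D1:**
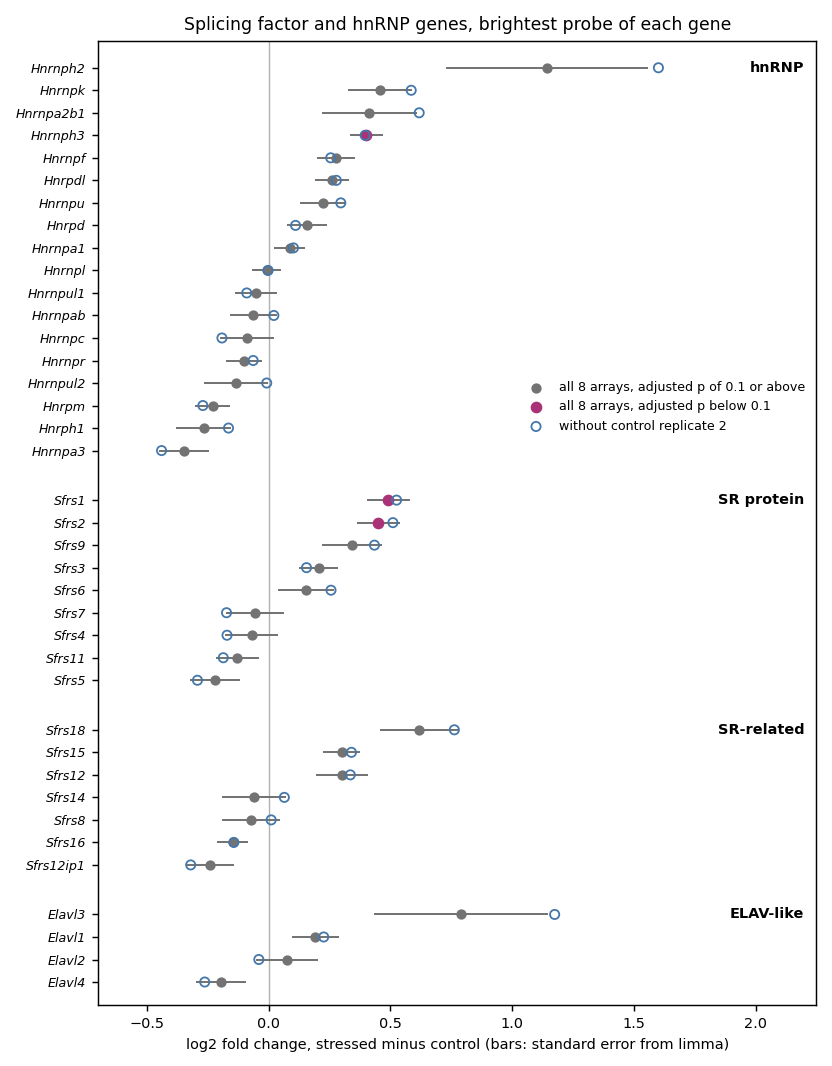
Log2 fold change (stressed minus control, horizontal axis) of the brightest probe of each of the 38 genes, by family. Filled points are the fit to all 8 arrays with bars for the limma SE, coloured where the adjusted p was below 0.1, and open points leave out control replicate 2. Hnrnph3, Sfrs1 and Sfrs2 are the called genes, and the open points of Hnrnph2 and Elavl3 lie furthest to the right of their filled points.

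Of the 18 hnRNP genes, 1 was called and was higher in stressed rats, where 3.74% of all tested probes were called. The median log2 fold change was 0.039, and 0.061 without control replicate 2, beside 0.061 and 0.093 over all tested probes. The called gene was Hnrnph3, which belongs to the subfamily of hnRNPs that bind runs of G. Its probe lies at base 459 of the transcript. The sequences printed here are the first 30 of the 60 bases of a probe, 5′ to 3′, with positions on the rn4 assembly as the files give them. Whether a probe lies in a coding exon or in a UTR was not analysed here. They are shown for the called genes and for the genes whose probes disagree, since each value belongs to these bases only. No motif is marked, and all letters are in lower case.
Hnrnph3 probe at base 459 (chr20:25356176-25356235, minus strand): gctatggaggttttgatgactatggtggct
The log2 signal of Hnrnph3 was -1.40, -1.36, -1.33 and -1.27 in control replicates 1 to 4 and -0.98, -0.89, -0.88 and -1.02 in stressed replicates 1 to 4. Every stressed rat exceeded every control rat, and control replicate 2 lay within the range of the other control rats. The log2 fold change was 0.40 (SE 0.067, adjusted p = 0.0544 from limma), and the exact permutation test gave p = 0.0286, the smallest that 70 choices of 4 of 8 arrays allow. Without control replicate 2 it was 0.40 (adjusted p = 0.00459).

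The other members of this subfamily were Hnrnph2, Hnrph1 (now Hnrnph1) and Hnrnpf. Hnrnph2, on the X chromosome, had the largest fold change of the 38 genes. Its log2 signal was -3.10, -1.28, -3.25 and -2.95 in control replicates 1 to 4 and -1.36, -1.52, -1.34 and -1.79 in stressed replicates 1 to 4. Control replicate 2 was the highest of the 8 rats, and the other control rats lay more than 1 log2 unit below every stressed rat. The group means differed by 1.14 on the log2 scale, with an SE of 0.42, and the gene was not called (adjusted p = 0.196). The difference was 1.60 (SE 0.13, adjusted p = 0.000714) without control replicate 2. With a covariate for how far signal leans to the 5′ side of transcripts on an array, the difference was 0.098 (adjusted p = 0.640). The results by probe position explain this measure. Values with this covariate, here and below, rest largely on where control replicate 2 lies. Hnrnpf had a log2 fold change of 0.28 (SE 0.079, adjusted p = 0.134), with every stressed rat above every control rat.

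Hnrph1 was measured by a pair of probes that gave opposite signs. The brighter one lies at base 1852 of the transcript and the other at base 970.
Hnrph1 probe at base 970 (chr10:35927461-35927520, plus strand): agaactcttcttgaattctacagcaggagc
Hnrph1 probe at base 1852 (chr10:35930039-35930098, plus strand): ggccttgatttaagtctttcattgtattgt
At base 1852 the log2 signal was 2.57, 2.92, 2.55 and 2.42 in control replicates 1 to 4 and 2.38, 2.40, 2.38 and 2.23 in stressed replicates 1 to 4, and every stressed rat was below every control rat. The log2 fold change of -0.27 was not called (SE 0.11, adjusted p = 0.242). It was -0.17 without control replicate 2 (adjusted p = 0.111) and -0.48 with the 5′ minus 3′ covariate (adjusted p = 0.0522). At base 970 the signal was -0.47, 0.34, -0.33 and -0.28 in the control rats and 0.39, 0.44, 0.40 and 0.15 in the stressed rats, in the same order. Here control replicate 2 lay within the range of the stressed rats and the other control rats lay below it. This came to a log2 fold change of 0.53 (SE 0.18, adjusted p = 0.173), and 0.71 without control replicate 2 (adjusted p = 0.00212).

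Among the A/B type hnRNPs, which bind exonic and intronic silencers of splicing, limma called 0 of 4 genes, and 1 passed at an unadjusted p below 0.05. Hnrnpa3 had the lowest fold change of the 38 genes and was measured by 4 probes.
Hnrnpa3 probe at base 558 (chr3:58354973-58355440, plus strand): aaattgttgttcagaaatgccacactatta
Hnrnpa3 probe at base 599 (chr3:58355422-58355565, plus strand): tgtgaagtgaaaaaggccctttctaaacta
Hnrnpa3 probe at base 1433 (chr3:58357113-58357167, plus strand): gcagttatcgattaatgcaatgtagtgtca
Hnrnpa3 probe at base 5159 (chr3:58360834-58360893, plus strand): gacagcagaggtggtctgtaattcaattgt
The brightest was the probe furthest 3′, at base 5159. Its log2 signal was 2.65, 2.24, 2.65 and 2.52 in control replicates 1 to 4 and 2.14, 2.17, 2.13 and 2.22 in stressed replicates 1 to 4, with every stressed rat below every control rat and control replicate 2 nearest to them. The log2 fold change was -0.35 (SE 0.10, adjusted p = 0.140), -0.44 without control replicate 2 (adjusted p = 0.00252) and -0.13 with the 5′ minus 3′ covariate (adjusted p = 0.244). The probes at bases 558, 599 and 1433 gave 0.32, 0.34 and 0.032 (SE 0.39, 0.31 and 0.062). Their adjusted p values were 0.658, 0.546 and 0.784. With control replicate 2 left out they gave 0.73, 0.68 and 0.033, with adjusted p values of 0.0201, 0.0102 and 0.686. The mean log2 signal of the control rats was -5.74, -4.38 and 2.27 at these probes and 2.51 at base 5159. The mean of the 4 probes, in which dim and bright probes count alike, had a log2 fold change of 0.086. The sign of the fold change thus differed between a bright probe and dim probes with large SEs. The first 2 probes span 468 and 144 bases of the genome, more than their length, and are numbered on another transcript than the last 2.

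Hnrnpab had a log2 signal of 3.92, 4.18, 3.79 and 3.82 in control replicates 1 to 4 and 3.85, 3.88, 3.88 and 3.83 in stressed replicates 1 to 4. The groups overlapped, and control replicate 2 was the highest rat. Its log2 fold change was -0.063 (adjusted p = 0.719), 0.021 without control replicate 2 and -0.24 with the 5′ minus 3′ covariate (adjusted p = 0.116). Hnrnpa1 and Hnrnpa2b1 had log2 fold changes of 0.087 and 0.41, with adjusted p values of 0.460 and 0.276. Without control replicate 2, Hnrnpa2b1 was at 0.62 (adjusted p = 0.00214), where this rat lay at 0.47 and the other control rats between -0.39 and -0.30.

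Hnrnpk, which binds C-rich RNA, had a log2 fold change above 0 at both of its probes. At the brighter probe, at base 1995, the log2 signal was 0.99, 1.63, 1.24 and 1.13 in control replicates 1 to 4 and 1.70, 1.70, 1.74 and 1.68 in stressed replicates 1 to 4. The stressed rats lay above all control rats by a small margin, set by control replicate 2. The group means differed by 0.46 on the log2 scale (SE 0.13, adjusted p = 0.136), and by 0.59 without this rat (adjusted p = 0.00168). The probe at base 1267 gave 0.64 (SE 0.12, adjusted p = 0.0649), and 0.74 without this rat (adjusted p = 0.00200), and was the only member probe that was called without being the brightest of its gene. Hnrnpk was named for this probe after its values were seen.

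The other 9 hnRNP genes gave log2 fold changes between -0.23 and 0.26, and limma called 0 of them, with 3 at an unadjusted p below 0.05. Hnrpdl (now Hnrnpdl) was at 0.26 (adjusted p = 0.120) with every stressed rat above every control rat, and Hnrpm (now Hnrnpm) at -0.23 (adjusted p = 0.156) with all stressed rats below. Hnrnpu, a protein of the nuclear scaffold, was at 0.22, and Hnrpd (now Hnrnpd), which binds AU-rich elements and takes part in mRNA decay, at 0.16. Hnrnpl, which binds CA-rich RNA, lay between 2.58 and 2.67 in all 8 rats, with a log2 fold change of -0.0094. Hnrnpc, Hnrnpr, Hnrnpul1 and Hnrnpul2 were at -0.091, -0.10, -0.052 and -0.13.

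Among the 9 SR proteins, 2 were called, both higher in stressed rats, where 3.74% of all tested probes were called. The median log2 fold change was 0.15 with and without control replicate 2, beside 0.061 and 0.093 over all tested probes. Sfrs1 (now Srsf1) is the splicing factor for which the family was first described, and Sfrs2 (now Srsf2) is also known as SC35.
Sfrs1 probe at base 615 (chr10:76342048-76342107, plus strand): gaaagaagatatgacgtatgcagttcgaaa
Sfrs1 probe at base 1992 (chr10:76343622-76343681, plus strand): cctgtacagtaacaaatgttggcattatca
Sfrs2 probe at base 751 (chr10:106955763-106955822, minus strand): aagagagagtccaagtctaggtcgcggtcc
For Sfrs1, at base 1992, the log2 signal was -2.34, -2.07, -2.15 and -2.13 in control replicates 1 to 4 and -1.78, -1.55, -1.68 and -1.71 in stressed replicates 1 to 4. The groups did not overlap, and of the control rats, replicate 2 came closest to the stressed rats. This came to a log2 fold change of 0.49 (SE 0.088, adjusted p = 0.0590 from limma, exact permutation p = 0.0286), and 0.52 without control replicate 2 (adjusted p = 0.00467). The probe at base 615 gave 0.81 (SE 0.22, adjusted p = 0.124) and 1.04 without control replicate 2 (adjusted p = 0.000794), with control replicate 2 at -3.46 and the other control rats between -4.50 and -4.24.

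Sfrs2 had a log2 signal of -1.60, -1.26, -1.51 and -1.37 in control replicates 1 to 4 and -1.05, -0.97, -0.998 and -0.92 in stressed replicates 1 to 4. Every stressed rat exceeded every control rat, again with control replicate 2 nearest to them. The log2 fold change was 0.45 (SE 0.090, adjusted p = 0.0709, exact permutation p = 0.0286), and 0.51 without control replicate 2 (adjusted p = 0.00294). Normexp, a correction for background with an offset of 50, put Sfrs2 at 0.39, with an adjusted p of 0.102. With the 75th percentile, quantile normalization and normexp alike, the log2 fold changes of the 3 called genes were above 0.

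For the other 7 SR proteins, limma called 0, and 2 passed at an unadjusted p below 0.05, with log2 fold changes of 0.21 for Sfrs3, -0.069 for Sfrs4, -0.22 for Sfrs5, 0.15 for Sfrs6, -0.056 for Sfrs7, 0.34 for Sfrs9 and -0.13 for Sfrs11. The groups did not overlap in Sfrs3, where every stressed rat exceeded every control rat at base 781. Its other probe, at base 2769, gave -0.13. Without control replicate 2, 8 of the 9 SR proteins were called, 4 higher and 4 lower in stressed rats. So were 10 of the 18 hnRNP genes and 4 of the 7 SR-related genes, where 42.4% of all tested probes were called. The 4 lower SR proteins were Sfrs4, Sfrs5, Sfrs7 and Sfrs11, with log2 fold changes between -0.29 and -0.17.

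Of the 7 SR-related genes, limma called 0, and 5 passed at an unadjusted p below 0.05, as did 9 of the 18 hnRNP genes, 4 of the 9 SR proteins and 20.3% of all tested probes. The median log2 fold change was -0.062, and 0.064 without control replicate 2. Sfrs18 (now Pnisr), a serine and arginine rich protein of nuclear speckles, had the largest fold change among the Sfrs genes at the brightest probes. Its log2 signal was -3.45, -2.65, -3.15 and -3.11 in control replicates 1 to 4 and -2.36, -2.44, -2.49 and -2.60 in stressed replicates 1 to 4. The groups did not overlap, and control replicate 2 lay within 0.1 log2 units of the lowest stressed rat. The group means differed by 0.62 on the log2 scale (SE 0.16, adjusted p = 0.111), by 0.76 without control replicate 2 (adjusted p = 0.00242) and by 0.26 with the 5′ minus 3′ covariate (adjusted p = 0.189).

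Sfrs12ip1 (now Srek1ip1), a partner of the product of Sfrs12, had the lowest fold change of the Sfrs genes. Its log2 signal was 0.36, -0.02, 0.27 and 0.26 in control replicates 1 to 4 and 0.05, -0.11, -0.04 and 0.01 in stressed replicates 1 to 4. Control replicate 2 lay among the stressed rats and the other control rats lay above them. This came to a log2 fold change of -0.24 (SE 0.096, adjusted p = 0.224), -0.32 without control replicate 2 (adjusted p = 0.00909) and -0.059 with the 5′ minus 3′ covariate (adjusted p = 0.687). Sfrs16 (now Clasrp), which binds a kinase of SR proteins, was at 2.42, 2.50, 2.57 and 2.44 in the control rats and at 2.35, 2.33, 2.36 and 2.31 in the stressed rats, in the same order. Every stressed rat was below every control rat, by a log2 fold change of -0.15 that was not called (adjusted p = 0.244). It was -0.14 without control replicate 2 (adjusted p = 0.103). Sfrs15 and Sfrs12 were both at 0.30 (adjusted p = 0.105 and 0.191), and Sfrs8 and Sfrs14 at -0.074 and -0.062.

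Of the 4 ELAV-like genes, limma called 0, and 0 passed at an unadjusted p below 0.05. The groups overlapped in each of them, and without control replicate 2 limma called Elavl3 and Elavl4, where 42.4% of all tested probes were called. Elavl1 is described because the study names it in a network of genes. It had a log2 signal of 0.10, 0.20, 0.002 and 0.08 in control replicates 1 to 4 and 0.25, 0.33, 0.47 and 0.09 in stressed replicates 1 to 4. The lowest stressed rat lay among the control rats. The log2 fold change was 0.19 (SE 0.096, adjusted p = 0.298, exact permutation p = 0.0857), 0.23 without control replicate 2 (adjusted p = 0.112) and 0.091 with the 5′ minus 3′ covariate (adjusted p = 0.673).

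The 3 neuronal genes of this family differed in the sign of the log2 fold change. Elavl3 was at -1.73, 0.01, -1.57 and -1.29 in control replicates 1 to 4 and at -0.45, -0.25, -0.16 and -0.57 in stressed replicates 1 to 4. Control replicate 2 was the highest of the 8 rats, and the other control rats lay below every stressed rat. Its log2 fold change was 0.79 (SE 0.36, adjusted p = 0.263), 1.17 without control replicate 2 (adjusted p = 0.00166) and -0.11 with the 5′ minus 3′ covariate (adjusted p = 0.586). Elavl4 was at 1.90, 1.50, 1.73 and 1.68 in the control rats and 1.59, 1.50, 1.35 and 1.59 in the stressed rats, with a log2 fold change of -0.20 (adjusted p = 0.314), -0.26 without control replicate 2 (adjusted p = 0.0576) and -0.026 with the 5′ minus 3′ covariate (not called). Elavl2 was at 2.07, 1.57, 2.02 and 2.01 and 2.02, 2.03, 1.83 and 2.09, in the same order, with control replicate 2 the lowest of the 8 rats. Its log2 fold change was 0.075 (adjusted p = 0.748), -0.041 without control replicate 2 and 0.34 with the 5′ minus 3′ covariate (adjusted p = 0.0807).

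**Figure D2:**
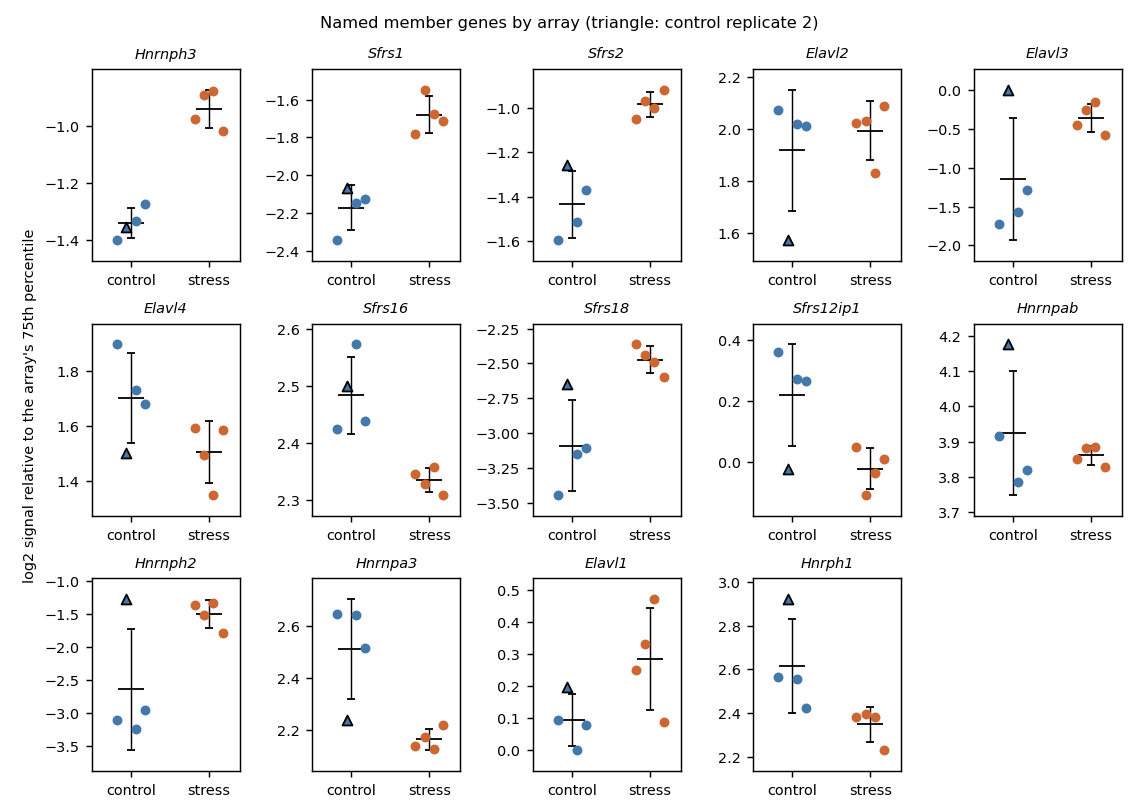
Log2 signal minus the array's 75th percentile (vertical axis) of 14 genes described by array, all but Hnrnpk, brightest probe, with 1 point per rat and the mean and SD of each group in black. The triangle is control replicate 2, which lies among or beyond the stressed rats for Hnrnph2, Elavl3 and Sfrs12ip1 and with the control rats for Hnrnph3.

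The place of a probe along its transcript was not part of the choice of genes, and fold changes differed along it. Of the 38 brightest probes, the 11 that begin before base 1000 of the transcript had a median log2 fold change of 0.34, with 9 above 0. The 12 probes between base 1000 and base 2000 had a median of 0.039, with 6 above 0, and the 15 after base 2000 a median of -0.069, with 5 above 0. The bounds were set after the values were seen, and genes are not replicates. Within genes, 12 members had 2 or more probes, and in 10 of them the probe furthest 5′ had the higher fold change. The exceptions were Hnrnpab and Sfrs15. The median difference between the log2 fold change at the 5′ and at the 3′ probe was 0.26 over the 12 genes. Over 1864 other transcripts, each with outermost probes 300 or more bases from each other, the median was 0.28 and the 5′ probe had the higher fold change in 80.4%, beside 83.3% of the member genes.

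The difference was largest in Hnrph1, at 0.80. Within each array, its log2 signal at base 970 minus that at base 1852, centred over the 8 arrays, was -0.64, -0.17, -0.48 and -0.30 in control replicates 1 to 4 and 0.41, 0.44, 0.43 and 0.32 in stressed replicates 1 to 4. This gene was chosen because its probes differ. The groups did not overlap in 3 of the 12 genes (25.0%), Hnrph1, Sfrs3 and Hnrpm, beside 243 of the 1864 other transcripts (13.04%). For Hnrnpa1, the fold change was 0.58 at base 328 and 0.087 at base 1610. Its centred 5′ minus 3′ signal was 0.40 in control replicate 2, -0.73 to -0.26 in the other control rats and 0.18 to 0.33 in the stressed rats. In Hnrnpr the 5′ minus 3′ signal of control replicate 2 was the lowest of the 8 rats, at -0.52, where the other 7 lay between 0.017 and 0.13.

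**Figure D3:**
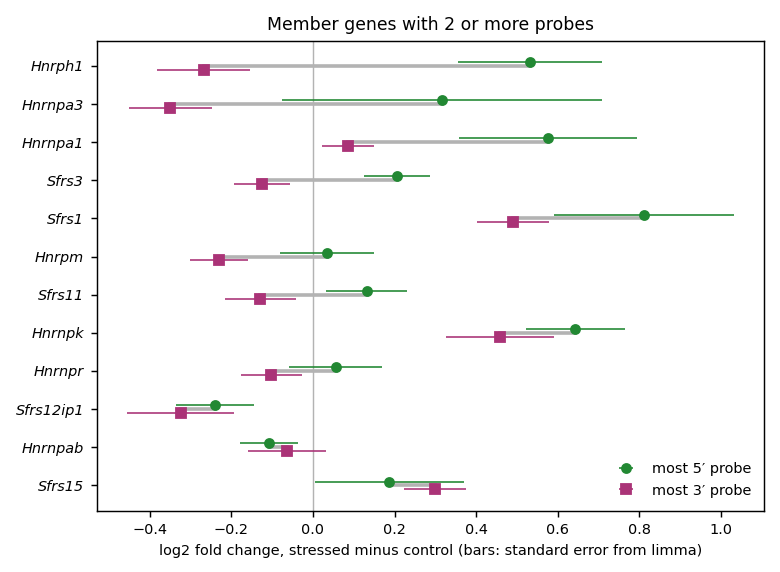
Log2 fold change (stressed minus control, horizontal axis) at the most 5′ probe (circles) and the most 3′ probe (squares) of the 12 member genes with 2 or more probes, with limma SEs as bars. The circle lies to the right of the square in 10 of the 12 genes, and the 2 fall on opposite sides of 0 for Hnrph1, Hnrnpa3, Sfrs3, Hnrpm, Sfrs11 and Hnrnpr.

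The same measure over the array put control replicate 2 with the stressed rats. The median centred 5′ minus 3′ signal of the 1864 other transcripts was -0.30, 0.23, -0.30 and -0.18 in control replicates 1 to 4 and 0.17, 0.15, 0.17 and 0.092 in stressed replicates 1 to 4 (exact permutation test, p = 0.143). Over the 12 member genes the medians were -0.20, -0.038, -0.17 and -0.12 in the control rats and 0.18, 0.16, 0.11 and 0.074 in the stressed rats, so that control replicate 2 lay between the groups. With the array-wide measure as a covariate in limma, 8 of the 38 genes (21.1%) were called, 5 higher and 3 lower in stressed rats, and Hnrnph3, Sfrs1 and Sfrs2 were among them. Over all tested probes 2355 (9.95%) were then called, 1150 higher and 1205 lower. The median log2 fold change was then 0.051 over the 38 genes and -0.041 over all tested probes. Their log2 fold changes were then 0.39, 0.40 and 0.31, with adjusted p values of 0.0516, 0.0806 and 0.0925. Hnrph1 at base 1852 and Elavl2 were called as well. Apart from control replicate 2, this measure separated the groups, so fold changes with the covariate rest largely on that rat. Whether the 5′ lean accounts for any difference between the groups was not tested. The part of RNA quality or labelling in this measure was not tested.

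**Figure D4:**
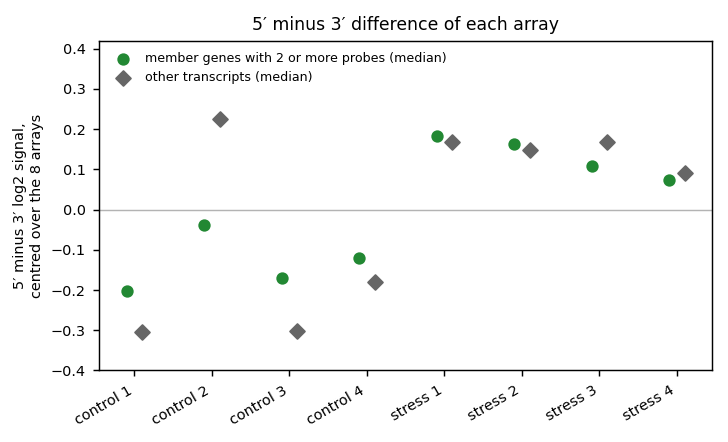
Median of the 5′ minus 3′ log2 signal, centred over the 8 arrays (vertical axis), for each array, over the 12 member genes with 2 or more probes (circles) and over 1864 other transcripts (diamonds). For the other transcripts control replicate 2, at 0.23, lies above the 4 stressed rats, and the remaining control rats lie at -0.18 or below.

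In base composition, the member probes had a median GC content of 38.3%, beside 45.0% over all tested probes. On the strand of the probe, the letters AATAAA, which are those of the usual polyadenylation signal, occurred in 9 of the 53 member probes (17.0%) and in 9.22% of all tested probes. Of the 53 probes, 7 covered more than 100 bases of the genome, so that they bridge a gap between parts of the genome. They belonged to Hnrpd, Sfrs7, Sfrs11, Sfrs12, Sfrs14 and, with 2 probes, Hnrnpa3.

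Other genes of the splicing machinery were taken from lists by function, with the brightest probe for each gene. Of 83 genes of the core spliceosome, 71 were tested and 4 were called, 1 higher and 3 lower in stressed rats, beside 3.74% of all tested probes, with a median log2 fold change of -0.038. Prpf3, a protein of the tri-snRNP, was at -0.49, -0.56, -0.52 and -0.57 in control replicates 1 to 4 and -0.85, -0.92, -0.88 and -0.83 in stressed replicates 1 to 4, a log2 fold change of -0.33 (SE 0.061, adjusted p = 0.0604), and -0.34 without control replicate 2 (adjusted p = 0.00448). Every stressed rat was below every control rat, and control replicate 2 lay with the control rats. Sf3a2, which takes part in recognising the branch point, was at -0.30 (adjusted p = 0.0822), and Snrpg, a subunit of the Sm ring, at -0.25 (adjusted p = 0.0936). Lsm7, of the related LSm ring, was higher, at 0.29 (adjusted p = 0.0830). The other probe of Sf3a2 gave 0.10, that of Lsm7 gave 0.22, and those of Snrpg gave -0.060 and -0.078, none of them called. Without control replicate 2, 31 of the 71 genes (43.7%) were called, beside 42.4% of all tested probes.

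Of 56 other regulators of splicing, 50 were tested and 5 were called, 3 higher and 2 lower in stressed rats, again beside 3.74%, with a median log2 fold change of 0.051. With control replicate 2 left out, 25 of the 50 were called, where the share over all tested probes was 42.4%. Cirbp and Rbm3, which are known as RNA-binding proteins induced by cold, were both higher. Cirbp was at -3.53, -1.14, -3.22 and -3.01 in control replicates 1 to 4 and -0.54, -0.27, -0.39 and -0.25 in stressed replicates 1 to 4. The groups did not overlap, and control replicate 2 lay nearer to the stressed rats than to the other control rats. This came to a log2 fold change of 2.36 (SE 0.48, adjusted p = 0.0722), 2.89 without control replicate 2 (adjusted p = 0.000257) and 1.19 with the 5′ minus 3′ covariate (adjusted p = 0.0424). Rbm3 was at -2.18, -1.95, -2.29 and -2.27 in the control rats and -1.65, -1.70, -1.81 and -1.52 in the stressed rats, in the same order, a log2 fold change of 0.50 (SE 0.10, adjusted p = 0.0759), and 0.58 without control replicate 2 (adjusted p = 0.00281). Rbm3 was not called with the 5′ minus 3′ covariate, at 0.36 (adjusted p = 0.120), or with normexp, at 0.41 (adjusted p = 0.144).

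Ptbp1, which represses neuronal exons and is made mainly outside neurons, was lower in stressed rats, and Ptbp2, its counterpart in neurons, was higher. Ptbp2 was at -6.04, -3.92, -5.57 and -5.24 in control replicates 1 to 4 and -3.52, -3.23, -3.51 and -3.55 in stressed replicates 1 to 4, a log2 fold change of 1.74 (SE 0.40, adjusted p = 0.0908), and 2.16 without control replicate 2 (adjusted p = 0.000770). Ptbp1 was at 0.20, -0.10, 0.19 and 0.19 in the control rats and -0.33, -0.24, -0.26 and -0.25 in the stressed rats, in the same order, a log2 fold change of -0.39 (SE 0.087, adjusted p = 0.0848), and -0.47 without control replicate 2 (adjusted p = 0.00134). With the 5′ minus 3′ covariate Ptbp2 was at 0.75 and Ptbp1 at -0.23 (adjusted p = 0.0675 and 0.0983). With normexp neither was called, with Ptbp2 at 0.90 and Ptbp1 at -0.41 (adjusted p = 0.116 and 0.111). For Ptbp1 and Ptbp2 alike, control replicate 2 was closer to the stressed rats than any other control rat. The other probe of Ptbp1, which lies further 5′, gave 0.016 (adjusted p = 0.960). Rbm4b was at -0.33 (adjusted p = 0.0712). Of the 9 kinases and import factors of SR proteins, 0 were called by limma and 1 passed at an unadjusted p below 0.05. Leaving out control replicate 2 gave 1 call among the 9 (11.1%), beside 42.4% of all tested probes.

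The 9 calls in these lists depend on the rats and on the processing. All 9 were kept without control replicate 2. When any 1 of the other 7 rats was left out, limma called 0 of the 9, beside 0 to 72 of all 23677 tested probes, and all 9 passed at an unadjusted p below 0.05. The log2 fold change of Prpf3 then lay between -0.35 and -0.31. With normexp, 2 of the 9 (Prpf3 and Cirbp) were called, with the 5′ minus 3′ covariate 8, and with the mean of a gene's probes 5. At an adjusted p below 0.05, limma called 0 of the 9. With the slide column as a block it also called 0 of the 9, beside 0 of all tested probes.

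**Figure D5:**
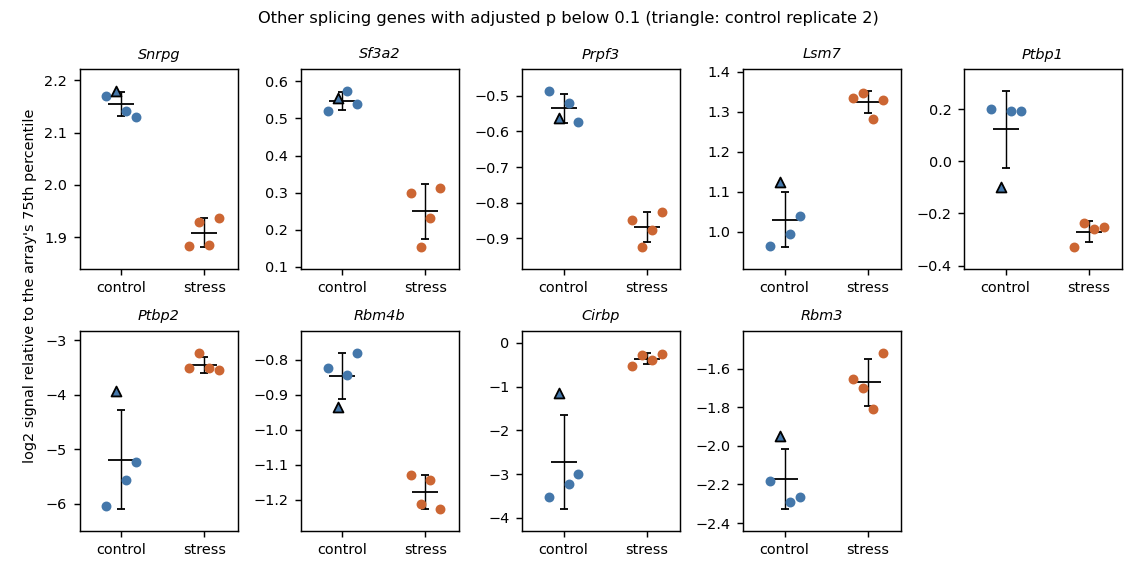
Log2 signal minus the array's 75th percentile (vertical axis) of the 9 genes of the other splicing lists with an adjusted p below 0.1, 1 point per rat, with the mean and SD of each group in black. The triangle is control replicate 2, which lies with the control rats for Prpf3, Sf3a2 and Snrpg and above the other control rats for Cirbp and Ptbp2.

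The CELF and RBFOX genes other than Celf3 stand on the array under 8 older names, outside the rule for members, and all were tested. Their median log2 fold change was -0.25, and limma called 0 of them, with 1 below an unadjusted p of 0.05. When control replicate 2 was left out the median was -0.17 and 3 of the 8 (37.5%) were called, beside 42.4% of all tested probes. Cugbp2 (now Celf2) was at 0.36 (adjusted p = 0.164), with every stressed rat above every control rat, and A2bp1 (now Rbfox1) at -0.20 (adjusted p = 0.260), with all stressed rats below. Brunol4, Brunol5, Brunol6 and Hrnbp3 (now Celf4, Celf5, Celf6 and Rbfox3) lay between -0.43 and -0.30, and Cugbp1 and Rbm9 (now Celf1 and Rbfox2) at 0.12 and 0.24.

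Markers of the cell types of the cord were read beside these genes, as the summed signal of the brightest probe of each marker, on the linear scale with the 75th percentile at 1. All 10 neuronal markers were tested, with Nefm the brightest, and limma called 0. At an unadjusted p below 0.05, 2 passed, Nefl at 0.57 and Slc17a6 at -0.26. The sum of the 10 markers was 211, 197, 195 and 194 in control replicates 1 to 4 and 220, 226, 192 and 206 in stressed replicates 1 to 4 (exact permutation test, p = 0.257). All 8 astrocyte markers were tested and limma called 0, with 1 at an unadjusted p below 0.05 (Gja1, at 0.30) and Aldoc the brightest. Their sum was 274, 295, 238 and 239 in the control rats and 330, 290, 297 and 279 in the stressed rats (exact permutation test, p = 0.0857). Of the 8 oligodendrocyte markers, all tested, 1 was called (Mog, at 0.90) and 3 passed at an unadjusted p below 0.05, the others being Cnp at 1.69 and Cldn11 at 0.59. Mbp was the brightest. Their sum was 277, 341, 240 and 235 in the control rats and 351, 330, 331 and 256 in the stressed rats (exact permutation test, p = 0.229). Control replicate 2 was the highest control rat in the sums of astrocytes, oligodendrocytes, microglia, endothelial cells and red blood cells, and not in those of neurons and of meninges and fibroblasts. Without this rat, limma called 3 of the 10 neuronal, 3 of the 8 astrocyte and 4 of the 8 oligodendrocyte markers. The share over all tested probes was then 42.4%.

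The sums of the remaining lists overlapped between the groups as well. All 8 microglial markers were tested and limma called 0, with 0 at an unadjusted p below 0.05, C1qb the brightest and a sum of 17.7 to 21.3 in control rats and 17.4 to 20.8 in stressed rats. All 6 endothelial markers were tested, with Vwf the brightest, and 1 was called (Pecam1, at 0.40) and 2 passed at an unadjusted p below 0.05, Vwf at -0.32 being the other, while the sum was 5.99 to 7.74 and 5.75 to 6.74. The 6 markers of meninges and fibroblasts, led by Igf2, summed to 2.08 to 7.64 and 1.94 to 5.63, and the 4 of red blood cells, led by Hba-a2, to 75.5 to 106.98 and 62.7 to 134. Each of these markers exceeded background clearly on all 8 arrays. Without control replicate 2, limma called 1 of the 8 microglial and 2 of the 6 endothelial markers, beside 42.4% of all tested probes. It then called 0 of the markers of meninges and fibroblasts and of red blood cells. The part of these cell types in the results was not tested.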

How the data were processed

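RNA of 4 stressed and 4 control rats was hybridised in 1 colour (Cy3), 1 array per rat. Per the file headers, the intensity values are the processed signals of Agilent Feature Extraction, background-subtracted and detrended within each array and deposited without normalization between arrays. Control spots were left out. The log2 signal minus the 75th percentile of each array, taken over all other spots with outliers, was averaged over the spots of a probe that are not outliers. Probes were tested when at least 0.5 of their spots were well above background on 4 or more of the 8 arrays, which held for 23677 of 30367 probes.

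The groups were tested by a linear model with limma 3.58.1 (two-sided, lmFit and eBayes) in R 4.3.3, with Benjamini-Hochberg adjustment over all tested probes. The code was also tested on simulated data. Single values were compared with an exact two-sided permutation test. The 5′ minus 3′ difference of an array is the median, over transcripts outside the members, of the outermost probes' difference. Current symbols were matched through accessions for 34 of the 38 genes, and through symbols or synonyms for the rest.

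Values per array are given for the called genes, at most 12, for the brightest, highest and lowest gene of each family, for Elavl1, and for genes whose probes differ by more than 0.5. In the other lists called genes are named, at most 5 per list, and 2 planned lists are not reported here. The genes and lists were chosen with earlier results of these data known. The spots behind the percentile, what counts as a gene symbol, and the transcripts of the 5′ minus 3′ measure were settled after results had been seen, the spots so that the count of called probes equals an earlier one. In all, 6 ways of scaling and averaging spots were tried. The alternatives were normexp (offset 50), quantile normalization, the authors' value table, other filters, a variance trend with robust estimation, array weights, the replicate number as a block, the 5′ minus 3′ covariate, 1 probe per gene symbol, the mean of a gene's probes, and each array left out. Exons and UTRs were not analysed here.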

Additional observations from a re-analysis of the deposited data

Results flagged for a closer look

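In 7 of 68 groups of 4 rats, 1 rat lay far from the other 3, by the ratio of its gap to the range of the group. Chance gives about 1 in 20 such groups, here 3.4, for measures not chosen from the data. Many of these measures were chosen from the same data, so 7 beside 3.4 is not a test. Control replicate 2 was that rat for Elavl2 (ratio 0.878), Hnrnph2 (0.851), Ptbp1 (0.964) and the first principal component (0.835). For Hnrnph2 and the first principal component it was the highest control rat, and for Elavl2 and Ptbp1 the lowest. Among the stressed rats, replicate 4 was low for Hnrph1 at base 1852 (0.905), and replicate 2 was high for Ptbp2 (0.883). The summed neuronal markers were high in control replicate 1 (0.844). No cause was tested.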

How the results depend on the processing

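Of 14 member genes and 9 genes of the other lists, 9 and 9 had 1 direction under 27 alternatives, of which 7 were added after results were seen. The 3 called genes were called under 18 (Hnrnph3), 18 (Sfrs1) and 17 (Sfrs2) of the 27, with log2 fold changes of 0.33 to 0.43, 0.38 to 0.65 and 0.31 to 0.51.

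In place of 885 probes, limma called 229 with normexp, 3010 without a filter, 1079 (of 22035) with probes well above background on all arrays, 1295 with a variance trend, 11983 with array weights, 2355 with the 5′ minus 3′ covariate (2389 with the members in that measure) and 113 at an adjusted p below 0.05. In place of 3 members it called 7 without a filter, 5 with probes well above background on all arrays, 9 with a variance trend (7 higher, 2 lower), 28 with array weights, 8 with either covariate, and 0 at an adjusted p below 0.05 (18 at an unadjusted p below 0.05). With 1 rat left out, it called 0 to 10038 probes (3003 to 10504 at an unadjusted p below 0.05) and 0 to 24 members (11 to 28), the highest of each without control replicate 2, and with any other rat left out 0 to 72 probes (3003 to 4398). The members' median was 0.038 with the percentile over probes. With the 5 added ways of scaling or averaging spots, 872 to 1074 probes and 3 to 4 members were called.

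With the replicate block, 0 probes, 0 members and 0 of the 9 called genes of the other lists were called, and 4292, 14 and 9 passed at an unadjusted p below 0.05. Rats of the same number shared deviations with correlations of 0.0951, 0.12, -0.0869 and 0.305, and no stressed rat correlated best with the control rat of its own number, so the values show no pairs. The numbers also stand for slide columns, so this is a block on slide column as well.

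Of the 9 calls in the other lists, 2 were kept with normexp, 8 with either covariate, 5 with the mean of a gene's probes, and 0 at an adjusted p below 0.05 or with any rat but control replicate 2 left out (all 9 at an unadjusted p below 0.05).

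Signs turned for Elavl2 (-0.0091) and Hnrnpab (0.036) with array weights, which gave control replicate 2 a weight of 0.107, and without that rat. With 1 rat left out these ran from -0.041 to 0.13 and from -0.11 to 0.021. Elavl3 was at -0.11 with either covariate, and Hnrnpa3 and Hnrph1 at 0.086 and 0.13 with the mean of their probes, which holds probes of both signs. For the other changes the cause was not tested. All member probes were well above background, and with normexp Sfrs2 was at 0.39 in place of 0.45 (adjusted p = 0.102) and Sfrs18 at 0.46 in place of 0.62. That setting also adds an offset, and the 2 were not separated. With 4 rats per group, precision is limited.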
